A study of Mus musculus with 8 samples.

Results

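The RNA of macrophages and other leukocytes that reside in skeletal muscle was followed through 10 marker genes, *Adgre1*, *Cd68*, *Cd163*, *Mrc1*, *C1qa*, *C1qb*, *C1qc*, *Csf1r*, *Lyz2* and *Ptprc*, taken by name from a count table of 32390 rows. All 10 had enough counts to be tested, as did 12725 rows in all. Gastrocnemius muscle came from 4 control mice (Nox4 fl/fl, in which *Nox4* is flanked by loxP sites) and 4 NOX4-deficient mice (MckCre:Nox4 fl/fl), all 21 months old, male and fed a standard chow diet. Both groups carry the floxed alleles and only the NOX4-deficient mice carry Cre. Cre was driven by the muscle creatine kinase (*Mck*) promoter, which is active in skeletal and, less so, cardiac muscle, so leukocytes are not the cells in which the gene was targeted. Each library is the RNA of a whole muscle of 1 mouse, and the question is whether leukocyte markers differed between the genotypes and how they varied together from mouse to mouse.

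Resident macrophages lie in the connective tissue between muscle fibers, where they clear debris, take up hemoglobin and iron, secrete complement and support repair. They depend on the CSF1 receptor for survival, and the lineage factor PU.1 turns on many of their genes. The markers fall into cell surface identity proteins (*Adgre1*, the F4/80 antigen; *Ptprc*, the pan-leukocyte phosphatase CD45; *Csf1r*, the receptor for CSF1 and IL-34), scavenger and endocytic receptors (*Cd163*, which takes up hemoglobin bound to haptoglobin; *Mrc1*, the mannose receptor CD206; *Cd68*, a late endosomal and lysosomal glycoprotein), the secreted C1q chains that start the classical complement pathway (*C1qa*, *C1qb*, *C1qc*) and *Lyz2*, the lysozyme of macrophages and neutrophils.

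The 8 libraries held between 16350548 and 19804661 counts, of which the 10 markers took between 425 and 2123, so each marker rested on few reads. Levels are given as CPM (counts scaled to a common library size) after TMM scaling, with SD over 4 mice. *Nox4* itself was 3.27 ± 1.42 CPM (SD, n = 4) in control mice, against 2.07 ± 0.220 CPM (SD, n = 4) when NOX4-deficient. With a log2 fold change of -0.65 (SE 0.29, edgeR quasi-likelihood adjusted p = 0.207) and overlapping groups, the targeted gene did not separate the genotypes in these libraries. It held only 29 to 85 counts in a library. By qPCR, the study reports *Nox4* RNA as largely ablated in skeletal muscle of younger NOX4-deficient mice. The 10 muscle fiber genes examined together took between 127112 and 161063 CPM of each library. A pair of mice stood apart on the markers themselves. Control 1 had the highest level of the 8 mice for 10 of 10 markers, and NOX4-deficient 4 had the lowest for 8 of 10, with NOX4-deficient 1 lowest for *Cd163* and *Adgre1*.

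All 10 markers had a lower mean level in NOX4-deficient muscle, but *Cd163* alone passed the test. It averaged 12.0 ± 4.64 CPM in control against 4.89 ± 1.69 CPM in NOX4-deficient muscle. One marker of 10 was called lower and 0 higher, where 3.48% of all rows tested were called lower and 2.68% higher. The median log2 fold change of the markers was -0.64, beside 0.01 over all rows, of which 47.7% were negative. The markers share their mice and, as described below, rise and fall together, so 10 negative signs are not 10 separate observations. Because whole muscle was used, fewer cells of a type and less RNA per cell cannot be told apart.

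*Cd163* measured 18.1, 13.1, 9.10 and 7.80 CPM in control mice 1 to 4 and 3.19, 6.42, 6.25 and 3.69 CPM in NOX4-deficient mice 1 to 4. The groups did not overlap, since the lowest control mouse lay above the highest NOX4-deficient mouse. The log2 fold change was -1.29 (SE 0.30, 95% interval -1.94 to -0.64), with an edgeR adjusted p of 0.0238. An exact two-sided permutation test of the mean CPM gave p = 0.0286, the smallest that 4 mice against 4 allow. The call rested on few mice: the adjusted p was 0.0579 without control 2, 0.0634 without NOX4-deficient 1 and 0.0573 without NOX4-deficient 4, with log2 fold changes between -1.45 and -1.03 over all 8 omissions of 1 mouse. Without control 1 and NOX4-deficient 4 together, the log2 fold change was -0.90 with an adjusted p of 0.0912.

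**Figure D1:**
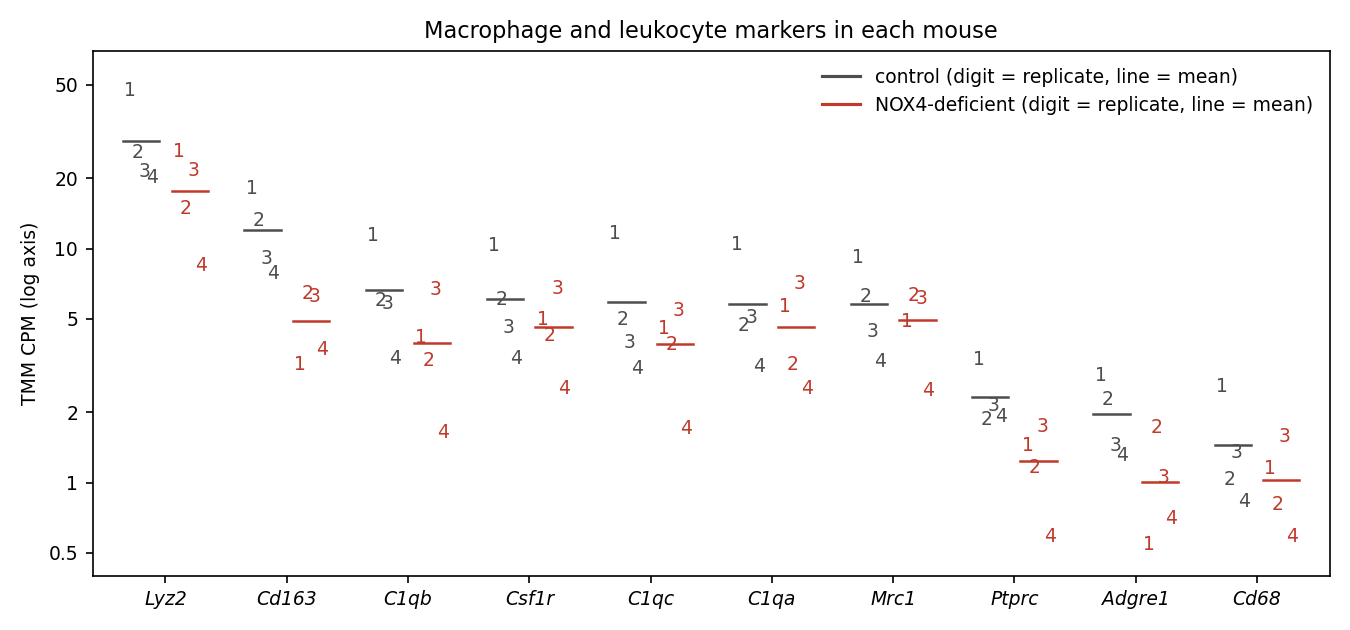
Level of each of the 10 markers in each mouse, in TMM-scaled CPM on a log axis, with the digit giving the mouse number and a line at the group mean. Control 1 is the top value for every marker, and only *Cd163* and *Ptprc* have all 4 NOX4-deficient mice below all 4 control mice.

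The pan-leukocyte marker *Ptprc* was the other gene without overlap, which makes 2 of 10 markers where 8.97% of all rows had every NOX4-deficient mouse below every control mouse. Its levels were 3.36, 1.85, 2.14 and 1.92 CPM in control 1 to 4 and 1.44, 1.16, 1.73 and 0.586 CPM in NOX4-deficient 1 to 4. The gap between the groups was narrow, from 1.85 CPM in control 2 to 1.73 CPM in NOX4-deficient 3. The log2 fold change of -0.90 (SE 0.33, 95% interval -1.61 to -0.18) had an unadjusted p of 0.0182 but did not pass the adjustment over all rows (edgeR adjusted p = 0.123), and the exact permutation p was 0.0286.

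*Adgre1*, the gene of the F4/80 antigen by which mouse macrophages are usually identified, measured 2.88, 2.26, 1.44 and 1.30 CPM in control 1 to 4 and 0.541, 1.72, 1.05 and 0.704 CPM in NOX4-deficient 1 to 4. NOX4-deficient 2 lay above control 3 and control 4, so the groups overlapped. The log2 fold change was -0.94 (SE 0.38, 95% interval -1.78 to -0.11), with an unadjusted p of 0.0292 and an edgeR adjusted p of 0.162. *Cd163*, *Ptprc* and *Adgre1* were the 3 markers with an unadjusted p under 0.05.

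*Csf1r*, on which macrophage survival depends, averaged 6.09 ± 3.02 CPM in control against 4.62 ± 1.74 CPM in NOX4-deficient muscle. Its levels were 10.3, 6.07, 4.60 and 3.38 CPM in control 1 to 4 and 4.99, 4.25, 6.73 and 2.52 CPM in NOX4-deficient 1 to 4. NOX4-deficient 3 exceeded all control mice but control 1, and the log2 fold change of -0.39 (SE 0.35, 95% interval -1.16 to 0.38) did not pass the test (edgeR adjusted p = 0.559). The libraries carry no strand, and *Csf1r* overlaps *Hmgxb3* on the opposite strand, so reads of the shared stretch cannot be told apart.

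The other scavenger receptors did not separate the genotypes. *Mrc1* measured 9.17, 6.23, 4.44 and 3.28 CPM in control 1 to 4 and 4.87, 6.27, 6.10 and 2.46 CPM in NOX4-deficient 1 to 4, which gave a log2 fold change of -0.22 (SE 0.34, 95% interval -0.95 to 0.52). *Cd68* measured 2.58, 1.03, 1.34 and 0.832 CPM in control 1 to 4 and 1.14, 0.809, 1.58 and 0.586 CPM in NOX4-deficient 1 to 4, which gave a log2 fold change of -0.47 (SE 0.41, 95% interval -1.36 to 0.42). Neither passed the test (edgeR adjusted p = 0.749 and 0.539), and in both genes the difference between the means was smaller than the SD among control mice.

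The C1q chains, which assemble in equal numbers into 1 protein, all had wide spreads. *C1qa* ranged from 3.12 to 10.4 CPM in control, and from 2.52 to 7.10 CPM in NOX4-deficient mice, with a log2 fold change of -0.32 (SE 0.40). *C1qb* ranged from 3.38 to 11.4 CPM in control, and from 1.64 to 6.67 CPM in NOX4-deficient mice, with a log2 fold change of -0.74 (SE 0.43). *C1qc* ranged from 3.07 to 11.6 CPM in control, and from 1.70 to 5.41 CPM in NOX4-deficient mice, with a log2 fold change of -0.59 (SE 0.44). In all 3 chains control 1 was highest and NOX4-deficient 4 lowest, the groups overlapped, and no adjusted p passed (edgeR, 0.679, 0.339 and 0.474). The chains kept similar proportions. *C1qa* made up between 29.9% and 43.0% of the summed C1q CPM of a mouse, *C1qb* between 28.0% and 39.2%, and *C1qc* between 26.6% and 37.4%.

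*Lyz2*, the most abundant marker, measured 47.5, 25.8, 21.3 and 20.02 CPM in control 1 to 4 and 25.9, 14.8, 21.5 and 8.50 CPM in NOX4-deficient 1 to 4. NOX4-deficient 1 and 3 lay within the range of control 2 to 4 or at its edge, and the log2 fold change of -0.69 (SE 0.37, 95% interval -1.53 to 0.14) did not pass the test (edgeR adjusted p = 0.302). The close paralog *Lyz1* held between 4 and 61 counts in a library, and the division of reads between these copies is uncertain.

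**Figure D2:**
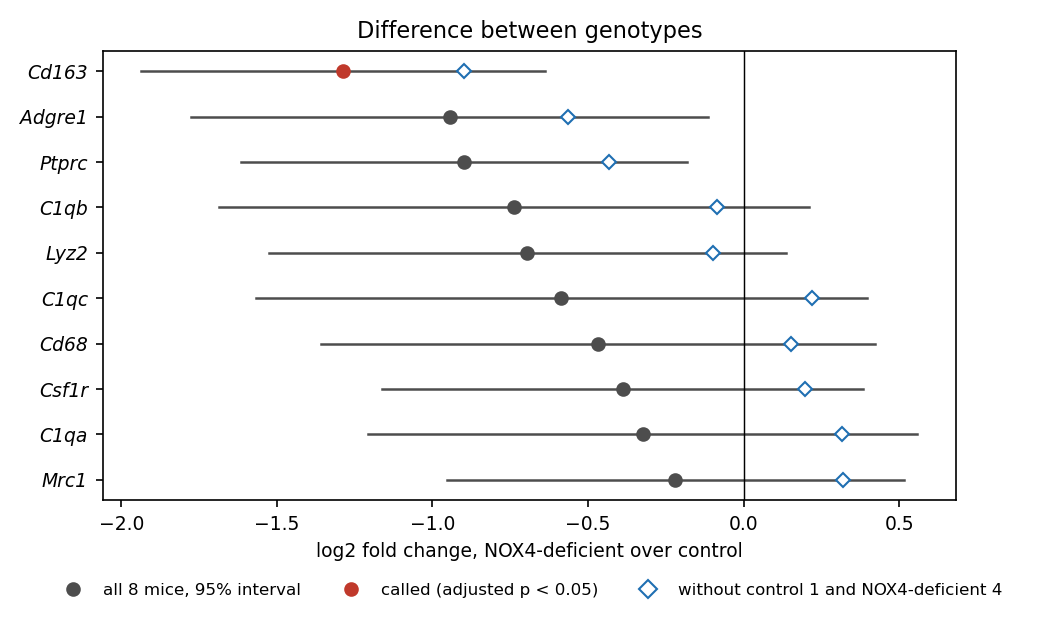
Log2 fold change of each marker, NOX4-deficient over control, with its 95% interval from the edgeR fit, for all 8 mice and for the 6 mice left without control 1 and NOX4-deficient 4. The interval excludes 0 for *Cd163*, *Adgre1* and *Ptprc* with 8 mice, and only *Cd163* passes the adjusted threshold.

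Leaving out control 1 and NOX4-deficient 4, the mice with the highest and the lowest sums of the markers, can only narrow the difference in that sum, and its size without them is a description. With all 8 mice the markers summed to 76.7 ± 35.1 CPM in control against 47.8 ± 17.0 CPM in NOX4-deficient muscle. Without control 1 and NOX4-deficient 4, the sums were 59.8 ± 12.0 CPM (SD, n = 3) and 55.5 ± 9.22 CPM (SD, n = 3). In that comparison of 3 mice against 3, 5 of 10 markers had a negative log2 fold change, the median was 0.03, and 0 markers were called. The signs of *Mrc1* (0.32), *C1qa* (0.32), *C1qc* (0.22), *Csf1r* (0.20) and *Cd68* (0.15) turned positive. The other markers stayed negative, at -0.09 for *C1qb*, -0.10 for *Lyz2*, -0.43 for *Ptprc*, -0.57 for *Adgre1* and -0.90 for *Cd163*. Omitting control 1 alone brought the median to -0.19 and turned *Mrc1* (0.09) and *C1qa* (0.10) positive, and omitting NOX4-deficient 4 alone brought it to -0.39 and turned *Mrc1* (0.01) positive.

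*Cd163* was also lower relative to other receptors of the same cells. Its CPM divided by that of *Mrc1* was 1.97, 2.11, 2.05 and 2.38 in control 1 to 4 and 0.654, 1.02, 1.03 and 1.5 in NOX4-deficient 1 to 4. This ratio was lower in every NOX4-deficient than in every control mouse, as it was for *Csf1r* (2.05 ± 0.238 in control, 1.14 ± 0.424 in NOX4-deficient muscle), and for none of the other 7 markers. Divided by *Adgre1* the ratio was 6.10 ± 0.244 in control and 5.21 ± 1.03 in NOX4-deficient muscle, and the groups overlapped. Since *Cd163* is itself in these ratios, they describe the same difference and were not tested.

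Per kilobase of the longest coding transcript (GENCODE M21), the scale on which levels of different genes can be compared, *Lyz2* led with 21.8 ± 9.74 CPM per kb in control muscle. The C1q chains followed at 6.10 ± 3.11 (*C1qb*), 5.59 ± 3.03 (*C1qa*) and 4.90 ± 3.21 (*C1qc*) CPM per kb and did not differ from each other beyond their spread. *Cd163* stood at 2.71 ± 1.04 CPM per kb. *Csf1r* (1.30 ± 0.642), *Cd68* (1.17 ± 0.637) and *Mrc1* (1.08 ± 0.477) were indistinguishable, and *Adgre1* (0.609 ± 0.228) and *Ptprc* (0.457 ± 0.139) were lowest. In NOX4-deficient muscle *Lyz2* again led with 13.4 ± 5.82 CPM per kb, and *Cd163* at 1.10 ± 0.380 CPM per kb lay within the spread of *Csf1r* at 0.983 ± 0.371 CPM per kb.

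The markers rose and fell together from mouse to mouse. The biological coefficient of variation, the spread between mice of 1 genotype beyond counting error, lay between 0.276 and 0.421 for the markers (median 0.344), against a median of 0.163 over all rows tested. Within a genotype the highest mouse exceeded the lowest by 1.81- to 3.77-fold in control and 2.01- to 4.07-fold in NOX4-deficient mice. Over the 45 pairs of markers, Pearson's r of the log2 CPM across 8 mice was positive in 45, with a median of 0.85 (range 0.37 to 0.98), and Spearman's rho had a median of 0.62. By exact permutation, adjusted over the 45 pairs, 29 pairs passed for r and 15 for rho. After each genotype was centered on its own mean the median r was 0.89 and 27 pairs passed, so the shared variation lay within the genotypes as well. Centering keeps control 1 and NOX4-deficient 4, the mice with the highest and the lowest sums of the markers. Without the 2 mice farthest from the median of the first gene of a pair, the median r was 0.62 and 41 of 45 remained positive, the lowest being -0.48 between *Mrc1* and *Ptprc*. Without control 1 and NOX4-deficient 4, a choice made after seeing the data, the median r was 0.41. Leaving out the farthest mice narrows the range of the first gene, which by itself tends to lower r.

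**Figure D3:**
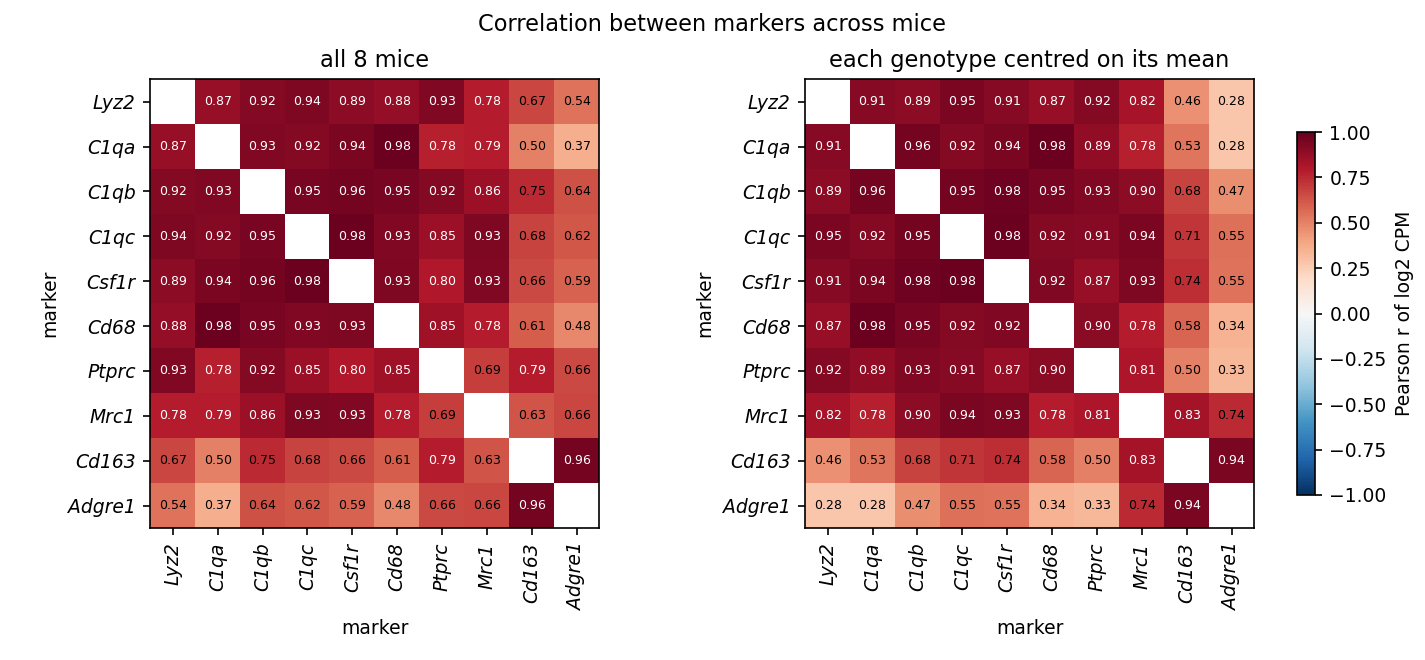
Pearson's r of log2 CPM over 8 mice for each pair of markers, from the deposited counts. The C1q chains, *Csf1r*, *Cd68* and *Lyz2* have high values among themselves, whereas *Cd163* and *Adgre1* are close to each other (0.96) and lower with the rest.

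The tightest pair was *C1qc* and *Csf1r*, with r = 0.98 (exact permutation p = 2.48e-05, the smallest that 8 mice can give; adjusted p = 0.00112), rho = 1.0 and r = 0.99 without the 2 farthest mice. *Cd68* and *C1qa* had r = 0.98 (exact permutation, adjusted p = 0.00335) and rho = 0.95, and r was 0.94 without the 2 farthest mice. *C1qb* and *C1qc* had r = 0.95 (exact permutation, adjusted p = 0.00651) and rho = 0.95, and r was 0.76 without the 2 farthest mice.

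*Cd163* and *Adgre1* were closest to each other. Their r was 0.96 (exact permutation, adjusted p = 0.006), rho was 0.93, and r was 0.89 without the 2 farthest mice and 0.94 after centering. Their median r with the 9 other markers was 0.67 and 0.62, against 0.78 to 0.93 for the remaining 8. NOX4-deficient 1 had the lowest *Cd163* and *Adgre1* of all 8 mice but the highest *Lyz2* of its genotype. The pair with the lowest r was *Adgre1* and *C1qa* (r = 0.37, rho = 0.24, exact permutation adjusted p = 0.373 for r), and r was 0.26 without the 2 farthest mice.

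**Figure D4:**
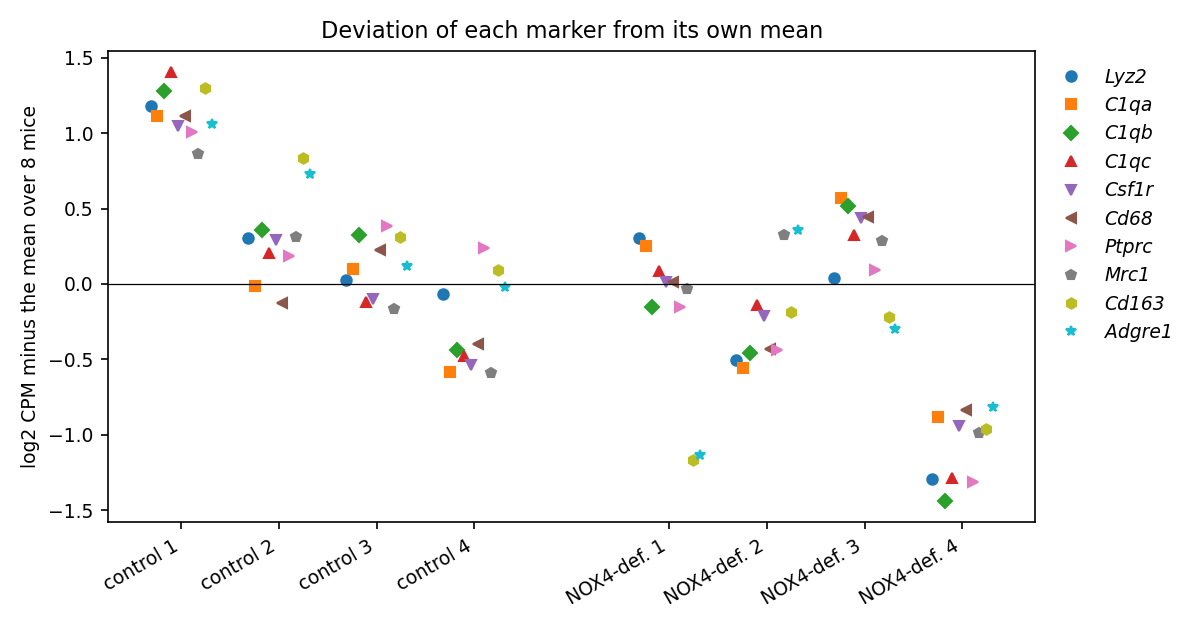
Log2 CPM of each marker minus its mean over the 8 mice, by mouse. Control 1 lies above and NOX4-deficient 4 below 0 for all 10 markers, and in NOX4-deficient 1 *Cd163* and *Adgre1* lie more than 1 log2 unit below 0 while *Lyz2* is above it.

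Promoter sequence is shown for 3 markers: *C1qb* and *C1qc*, neighbors on chromosome 4 that moved together, and *Cd163*, the marker that was called. Each is the 250 bases before the RefSeq start site in GRCm38.p6, 5′ to 3′ on the strand of the gene, and capitals mark GAGGAA or its reverse complement TTCCTC, the core letters bound by PU.1. *C1qb* is chr4:136886201-136886450 on the minus strand, *C1qc* is chr4:136892915-136893164 on the minus strand and *Cd163* is chr6:124304401-124304650 on the plus strand.
C1qb: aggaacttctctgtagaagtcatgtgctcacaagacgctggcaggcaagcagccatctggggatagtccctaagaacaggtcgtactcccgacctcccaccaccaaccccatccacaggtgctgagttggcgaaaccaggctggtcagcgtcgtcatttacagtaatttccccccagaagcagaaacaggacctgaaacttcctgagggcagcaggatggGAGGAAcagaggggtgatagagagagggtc
C1qc: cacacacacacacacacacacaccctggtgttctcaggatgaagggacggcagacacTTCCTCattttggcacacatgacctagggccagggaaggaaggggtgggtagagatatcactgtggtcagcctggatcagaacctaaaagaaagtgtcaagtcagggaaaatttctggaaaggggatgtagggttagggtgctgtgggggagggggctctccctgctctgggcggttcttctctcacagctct
Cd163: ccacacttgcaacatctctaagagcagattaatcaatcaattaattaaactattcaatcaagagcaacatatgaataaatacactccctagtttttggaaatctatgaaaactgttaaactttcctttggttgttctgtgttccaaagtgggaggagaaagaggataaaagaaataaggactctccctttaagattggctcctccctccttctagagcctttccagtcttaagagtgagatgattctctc
The *C1qb* window held the core 30 bases before the start site and the *C1qc* window held it 193 bases before, whereas these letters were not in the *Cd163* window. Windows of 300 bases, from 250 before to 50 after the start site, were on hand for 7 of the 10 markers, 8 windows in all. The core was in 5 of the 8, against 28.3% of 32851 windows of all genes, and *Mrc1* had it 3 times. TGANTCA (AP-1) was in 1 of 8 windows against 7.81% of all, and TATAAA (the TATA box) in 1 of 8 against 13.6% of all. Both strands were searched, these motifs do not overlap each other, and a match is a description of letters and not a bound site.

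The genes outside the markers whose levels were most like them were sought over all 12715 other rows tested, by the r of log2 CPM over 8 mice with the mean of the standardized markers. *Lcp1* (L-plastin, an actin-bundling protein of leukocytes) came first with r = 0.98, followed by *Ppp1r18* (0.96), *Nckap1l* (0.95), a subunit of the leukocyte WAVE complex, *Twist1* (0.95), *Cd53* (0.95), a leukocyte tetraspanin, *Fes* (0.94), *C5ar1* (0.94), *Lilrb3* (0.94), *Smoc2* (0.94) and *Srgn* (0.94), the serglycin core protein. Of all these rows 0.275% had r over 0.9, and the median r was 0.01. *Lcp1* averaged 4.33 CPM in control against 2.73 CPM in NOX4-deficient muscle (log2 fold change -0.65, edgeR adjusted p = 0.194), and none of the 10 nearest genes passed the test. *Smoc2*, a matrix protein at 149.9 CPM in control muscle, and *Twist1*, a mesenchymal transcription factor, are not leukocyte genes.

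Further monocyte and macrophage genes had lower means as a rule, but none passed the test. Of a list of 28, 20 were tested and 0 were called in either direction by edgeR, DESeq2 or pydeseq2, although 19 of 20 had a negative log2 fold change, 3 had an unadjusted p under 0.05, and the median was -0.43. The smallest p-values were those of *Cd14*, the lipopolysaccharide co-receptor (1.34 ± 0.371 CPM in control, 0.531 ± 0.311 CPM in NOX4-deficient muscle; log2 fold change -1.33, SE 0.44, adjusted p = 0.0869), and *Fcgr2b*, an inhibitory Fc receptor (log2 fold change -0.93, SE 0.34, adjusted p = 0.123). Taken with the markers' mean over the 8 mice, the 20 genes had a median r of 0.83. They come from the same mice and vary with the markers, so 19 negative signs are not 19 separate observations. Of all rows tested, 47.7% were negative. The list's summed level ranged from 77.7 to 112 CPM in control, and from 40.0 to 80.0 CPM in NOX4-deficient mice. Without control 1, 1 gene of the list was called lower.

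Genes of resident macrophages, antigen presentation and lipid-handling macrophages were mixed. Of 12 resident macrophage genes 7 were tested and 1 was called, and that 1 was higher. Among the 7, 5 had a negative log2 fold change, 4 had an unadjusted p under 0.05, and the median was -0.35. *Gas6*, a ligand of the receptors that take up dying cells and one also made by stromal cells, was 58.8 ± 8.81 CPM in control against 84.3 ± 11.9 CPM in NOX4-deficient muscle (log2 fold change 0.52, SE 0.13, edgeR adjusted p = 0.0319). It kept the call without control 1, NOX4-deficient 2 or NOX4-deficient 4 and lost it in the other omissions of 1 mouse, with adjusted p-values up to 0.0878. *Lyve1*, a hyaluronan receptor of vessel-associated macrophages and of lymphatic endothelium, was 4.44 ± 2.49 CPM in control against 1.76 ± 0.522 CPM in NOX4-deficient muscle (log2 fold change -1.32, SE 0.40) and missed the threshold in edgeR (adjusted p = 0.0665). DESeq2 and pydeseq2 called it lower, together with *Igf1*, a growth factor. Of 12 antigen presentation genes 8 were tested and 0 were called by edgeR, DESeq2 or pydeseq2 (0 with an unadjusted p under 0.05), and their median log2 fold change was -0.36. The examples with the smallest p were *Clec9a* (log2 fold change 0.54, adjusted p = 0.399) and *Cd209a* (-0.62, adjusted p = 0.547), both of dendritic cells. Of 11 genes of lysosomal and lipid-handling macrophages 1 was called, *Cd36*, a fatty acid transporter that muscle fibers and endothelium also express. It was 441 ± 69.8 CPM in control against 268 ± 60.2 CPM in NOX4-deficient muscle (log2 fold change -0.72, SE 0.16, edgeR adjusted p = 0.0189), and the call was lost without control 2, NOX4-deficient 1 or NOX4-deficient 3 (adjusted p of 0.0574, 0.0509 and 0.0574).

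Neither ligand of the CSF1 receptor passed the test. *Csf1* was 8.30 ± 2.07 CPM in control against 7.42 ± 1.66 CPM in NOX4-deficient muscle (log2 fold change -0.16, SE 0.21), and *Il34* was 3.60 ± 0.436 and 4.43 ± 0.466 CPM (log2 fold change 0.30, SE 0.17, edgeR adjusted p = 0.33), with only NOX4-deficient 3 below the highest control mouse. Of 13 genes of CSF1 receptor ligands, related receptors and myeloid factors 12 were tested and 2 were called lower. *Tgfbr1*, a TGF-beta receptor of many cell types, had a log2 fold change of -0.71 (SE 0.16, edgeR adjusted p = 0.0198), and *Cebpb*, a transcription factor that muscle also expresses, of -1.13 (SE 0.27, edgeR adjusted p = 0.0305). The *Tgfbr1* call was lost without control 4 or NOX4-deficient 3 (adjusted p of 0.0552 and 0.0584), and the *Cebpb* call was kept without control 1 or NOX4-deficient 3 and lost in the other omissions of 1 mouse, with adjusted p-values up to 0.0973.

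Of 15 complement genes outside C1q, 14 were tested and 0 were called by edgeR, DESeq2 or pydeseq2, 5 having an unadjusted p under 0.05. The smallest p-values were those of *C5ar1*, the receptor for C5a (1.33 ± 0.636 CPM in control, 0.584 ± 0.277 CPM in NOX4-deficient muscle; adjusted p = 0.138), and *Masp1*, a lectin pathway protease (0.901 ± 0.401 and 1.88 ± 0.931 CPM; adjusted p = 0.154). The 14 had a median log2 fold change of -0.14 and a median r of 0.68 with the markers' mean.

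Among cytokines and chemokines 6 of 19 genes had enough counts to be tested and 1 was called by edgeR. *Ccl6*, a CC chemokine of macrophages, measured 14.7, 8.44, 7.49 and 7.43 CPM in control 1 to 4 and 3.43, 1.57, 4.63 and 1.52 CPM in NOX4-deficient 1 to 4. Every NOX4-deficient mouse lay below every control mouse. The log2 fold change was -1.77 (SE 0.36, edgeR adjusted p = 0.0159), and *Ccl6* remained called in 8 of 8 omissions of 1 mouse and without control 1 and NOX4-deficient 4 together (-1.27, adjusted p = 0.0431). *Ccl9*, a related chemokine, had a log2 fold change of -1.38 (SE 0.44) and missed the threshold in edgeR (adjusted p = 0.0855), while DESeq2 and pydeseq2 called it lower. By qPCR, the study reported increased expression of genes of senescence, inflammation and frailty in this muscle of aged NOX4-deficient mice. Of these genes, *Gpnmb* (log2 fold change -0.40, SE 0.35, edgeR adjusted p = 0.534) and *Spp1* (0.35, SE 0.41, adjusted p = 0.66) did not pass the test in these libraries. *Il6*, *Tnf*, *Cxcl1*, *Ccl2* and *Crp* held between 0 and 10 counts in a library, too few to be tested.

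Markers of other blood cells were sparse. Of 11 granulocyte and mast cell genes 7 were tested and *S100a9*, a neutrophil and monocyte calcium-binding protein, was called lower. It held 73, 50, 56 and 26 counts in control 1 to 4 and 18, 7, 0 and 2 counts in NOX4-deficient 1 to 4 (log2 fold change -2.87, SE 0.68, edgeR adjusted p = 0.0286), and kept the call without control 4, NOX4-deficient 1 or NOX4-deficient 3 but lost it in the other omissions of 1 mouse, with adjusted p-values up to 0.0861. The neutrophil marker *Ly6g* had 0 counts in all 8 libraries. Of 16 T and NK cell genes only *Cd3e* could be tested (log2 fold change 0.50, SE 0.45, adjusted p = 0.549), and of 8 B and plasma cell genes 3 could. *Ighm* was 217 ± 71.0 CPM in control against 339 ± 129 CPM in NOX4-deficient muscle (adjusted p = 0.226), while the B cell genes *Cd79a* and *Ms4a1* held at most 3 counts in a library, and *Igkc* was 3.55 ± 1.62 and 1.39 ± 1.36 CPM (adjusted p = 0.298).

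Hemoglobin RNA, which comes from red blood cells in the muscle, differed in the opposite direction to *Cd163*, a receptor for hemoglobin. *Hba-a1* was 14.1 ± 1.11 CPM in control against 33.5 ± 12.8 CPM in NOX4-deficient muscle (log2 fold change 1.24, SE 0.23, edgeR adjusted p = 0.00978), and *Hbb-bs* was 35.4 ± 2.01 and 70.9 ± 26.0 CPM (log2 fold change 1.00, SE 0.21, adjusted p = 0.0153). The 3 red blood cell genes in the table, all tested, summed to between 47.6 and 52.7 CPM in control and between 72.3 and 159 CPM in NOX4-deficient mice, without overlap. Their part in the level of *Cd163* or of the other markers was not tested, and their median r with the markers' mean over the 8 mice was -0.18.

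The lists of other muscle cells held few calls. Of 10 muscle fiber genes 0 were called by edgeR, DESeq2 or pydeseq2 (0 with an unadjusted p under 0.05), the median log2 fold change was 0.11, and the largest was that of the slow myosin *Myh7* (39.3 ± 25.1 and 86.5 ± 69.9 CPM, adjusted p = 0.401). *Pvalb*, the calcium buffer of fast fibers, had the second smallest p of that list (log2 fold change 0.27, adjusted p = 0.44). Of 8 endothelial genes *Vwf* alone was called, at 19.3 ± 2.70 CPM in control against 32.3 ± 6.33 CPM in NOX4-deficient muscle (log2 fold change 0.74, SE 0.15, edgeR adjusted p = 0.0129), and the median of the list was 0.05. Fibroblast and tendon genes (8 tested, median 0.45) and adipocyte genes (6 tested, median 0.59) gave 0 calls by edgeR. So did Schwann cell genes (4 tested, median 0.45) and satellite cell genes (4 of 5 tested, median 0.01). In this order, 2, 0, 2 and 1 of them had an unadjusted p under 0.05, and DESeq2 and pydeseq2 called 1 of them. Ranked by p, *Tnmd* (log2 fold change 0.78) and *Col1a1* (0.76) led the fibroblast and tendon genes. *Plin1* (1.38) and *Adipoq* (0.87) led the adipocyte genes by p, and *Pax7* (0.67) and *Myod1* (-0.56) the satellite cell genes. The Schwann cell gene *Mbp* was at 0.65. The median r of these lists with the markers' mean lay between -0.21 for muscle fiber and 0.27 for adipocyte genes, but single genes reached 0.80 among fibroblast and tendon, 0.78 among adipocyte and 0.74 among endothelial genes.

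**Figure D5:**
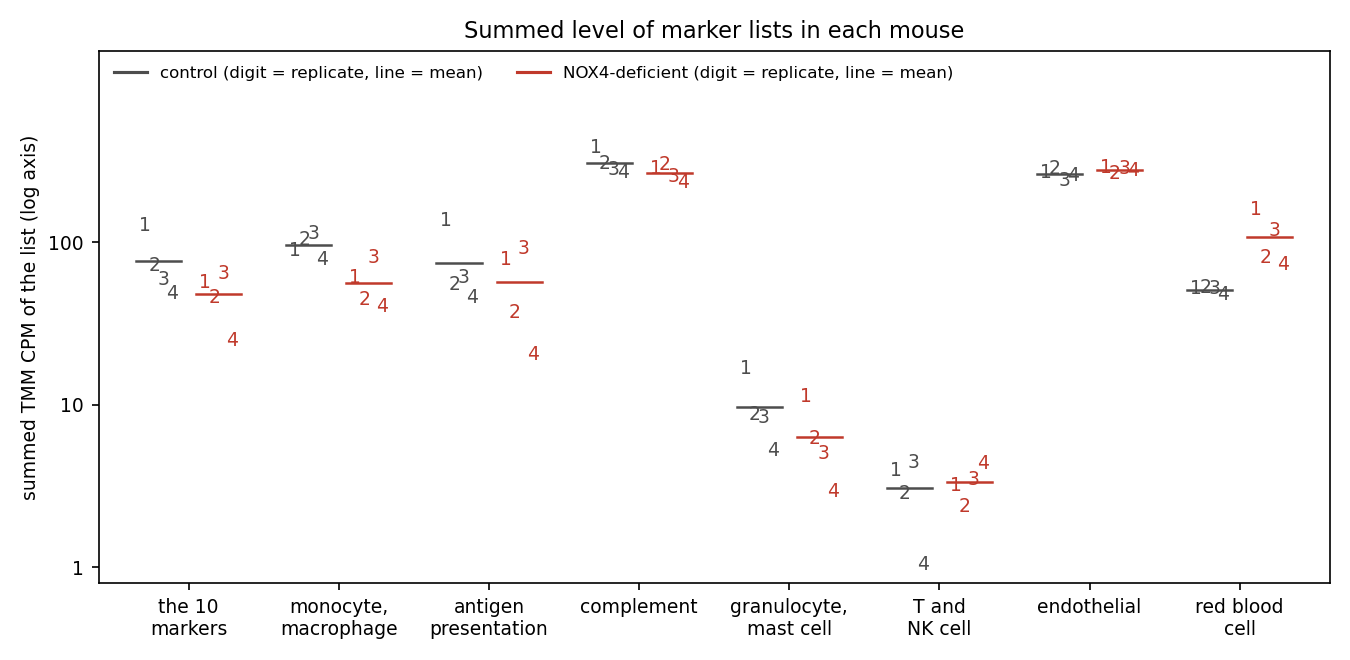
Summed TMM-scaled CPM of the 10 markers and of 7 marker lists in each mouse, on a log axis, with the digit giving the mouse number and a line at the group mean. The 10 markers span 48.1 to 127 CPM in control and 24.9 to 64.2 CPM in NOX4-deficient mice and overlap, whereas the red blood cell genes do not.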

How the data were processed

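Bulk RNA-seq was performed on gastrocnemius muscle of 4 control and 4 NOX4-deficient mice, with poly(A)-selected, unstranded, paired-end libraries that the labels place in 1 batch. Per the labels and the study's methods, the nf-core pipeline made the table of read counts, which the authors deposited without normalization; the submitters' processing notes name STAR and GRCm39. Column names matched all 8 samples, with 0 columns unmatched. A repeated gene name (412 rows repeat an earlier one) stands for its row with most counts.

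The counts were fitted with edgeR 4.0.16 in R 4.3.3 (TMM scaling, filterByExpr, robust dispersions, quasi-likelihood F test) on all 8 mice with genotype as the only term. A gene was called at a Benjamini-Hochberg adjusted p under 0.05 over the 12725 rows tested with a log2 fold change beyond 0.5 in either direction, the thresholds of the study. DESeq2 1.42.0, pydeseq2 0.5.4, other scalings and filters, a replicate block and the omission of each mouse were alternatives. Leaving out control 1 and NOX4-deficient 4 together was chosen after seeing the data. The fit was tested on simulated data. Correlations used log2 CPM with a prior count of 2 and exact permutation over the 8 mice (scipy 1.17.1). Each library is 1 mouse, and no pair of replicates held the same counts within sampling noise (12 pairs, lowest and highest chi-square per degree of freedom 12.6 and 52.1).

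The markers and lists were chosen with earlier results of these data known. Named are all markers, the called genes of each list (up to 5) or else the 2 with the smallest p, *Nox4*, the 10 nearest genes and the genes the study followed by qPCR for senescence, inflammation and frailty. Some genes of the lists are not reported here by name. Other genes named were chosen after their values were seen. Promoter windows come from RefSeq (GRCm38.p6) and transcript lengths from GENCODE M21, another build than the counts, so both serve sequence and length only.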

Additional observations from a re-analysis of the deposited data

Results flagged for a closer look

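In 8 of 128 groups of 4 mice examined, over the markers, the summed lists, library totals and the named genes with values, a mouse lay far from the others. Chance gives about 1 in 20, or 6.4. None of the single markers was among them. The number given is the gap to the nearest mouse as a share of the group's range. Control 1 was high for the antigen presentation sum (0.835), for *C5ar1* (0.892) and for *Ccl6* (0.861), where it measured 135, 2.28 and 14.7 CPM. Control 3 was high for the muscle fiber sum (0.899) and control 4 for *Mbp* (0.858). NOX4-deficient 1 was low for *Nox4* (0.918), with 1.74 CPM against 2.17, 2.21 and 2.17 CPM in the others, and for *Pax7* (0.907). NOX4-deficient 3 was high for *Cebpb* (0.883), with 52.5 CPM against 22.3, 25.8 and 24.98 CPM in the others.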

How the results depend on the processing

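The *Cd163* log2 fold change stayed negative under every alternative run, and DESeq2 and pydeseq2 gave it smaller adjusted p-values (0.000513 and 0.000535). The number of markers called was 1 with all 8 mice, 2 with the replicate block, 0 without control 1 and NOX4-deficient 4, and 0 to 1 when single mice were omitted. For the monocyte and macrophage list these counts were 0, 1 with the replicate block (*Cd14*), 1 without both mice and 0 to 1 with single omissions. Over all rows, omitting 1 mouse left 499 (without control 4) to 712 calls, against 443 lower and 341 higher with 8 mice. Without both mice *Cd68* (0.15), *Mrc1* (0.32), *C1qa* (0.32), *C1qc* (0.22) and *Csf1r* (0.20) changed sign, and with single omissions *Mrc1* ranged from -0.42 to 0.09, *C1qa* from -0.60 to 0.10, *Cd68* from -0.74 to -0.05, *C1qc* from -0.80 to -0.04 and *Csf1r* from -0.62 to -0.02. The cause was not tested. The median correlation of the markers was 0.62 by Spearman's rho and 0.41 without both mice, and 0.72 to 0.90 with single omissions. Requiring 10 counts in every sample removed *Adgre1* and left 9 markers.

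Control and NOX4-deficient mice share replicate numbers that the labels do not tie to a litter or day. Deviations of same-numbered mice correlated at 0.22, 0.15, 0.04 and 0.04, and those of other pairs at -0.21 to 0.19. Not every mouse correlated best with its own number, and these values cannot settle whether the numbers mark a shared litter or day. With the replicate block, 543 rows were called lower and 390 higher, and *Lyz2* was called beside *Cd163* (-0.72, adjusted p = 0.0336). Depth and the spread between mice both limit the test: *Adgre1* and *Cd68* rest on few counts in a library, while *Lyz2*, with the most counts, also missed the threshold. A marker that misses the threshold is not shown to be equal.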
